A study of Mus musculus with 15 samples.

Results

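A set of 10 genes with roles in carrying dietary fat through the absorptive cells of the small intestine was followed in all 15 libraries of a mouse ileum RNA-seq study: Cd36, Slc27a4, Fabp1, Fabp2, Acsl5, Mogat2, Dgat1, Dgat2, Plin2 and Plin3. They were taken by symbol from a given list of genes of fatty acid uptake and triglyceride synthesis. All 10 were found among the 37620 gene identifiers of the count tables, and all 10 passed the filter on low counts in each comparison. The study asked which genes of the adult ileum depend on Rfx6, a transcription factor of hormone-producing cells of the gut and pancreas. Adult mice received tamoxifen (10 mg per gavage), and the ileum was taken 8 days or 3 months later. The 8-day cohort held 3 control libraries (Rfx6f/f) and 4 libraries labelled mutant (Rfx6f/f with Vilin-CreERT2). The 3-month cohort held 4 control libraries, 2 of them Rfx6f/f and 2 Rfx6f/+, and 4 libraries labelled mutant (Rfx6f/f with Vilin-CreERT2). The Villin promoter drives the tamoxifen-inducible recombinase in the intestinal epithelium. Tamoxifen was given to all animals according to the protocol, and no control carried the recombinase, so an effect of the recombinase itself and an effect of Rfx6 deletion cannot be told apart. The same holds for cohort and time, since each time was sampled in its own cohort.

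Long-chain fatty acids and monoacylglycerol released from dietary fat enter the enterocyte at its brush border, with CD36 and the transport protein FATP4 (Slc27a4) among the proteins involved. Small cytosolic binding proteins (Fabp1, Fabp2) carry fatty acids in the cell, and acyl-CoA synthetases such as Acsl5 couple them to coenzyme A. Mogat2 then adds an acyl chain to monoacylglycerol, and Dgat1 or Dgat2 adds the last chain to make triglyceride. The triglyceride leaves the cell in chylomicrons or is held for a time in cytosolic lipid droplets coated by perilipins such as Plin2 and Plin3. Most dietary fat is absorbed in the proximal small intestine, and less of it reaches the ileum.

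Library totals ranged from 30452485 to 54468586 counts at 8 days and from 26078462 to 36270306 at 3 months. The members were well covered, with 388 counts for the lowest value of any of them in any library (Fabp1, 8 days). Rfx6 itself did not fall with the mutant label: it had 50 to 84 counts in controls and 44 to 105 in the libraries labelled mutant at 8 days, and 38 to 52 against 65 to 106 at 3 months. Whole-gene counts do not show whether the floxed exons were removed. Of 9 enteroendocrine genes, 3 were lower in the libraries labelled mutant at 8 days, and at 3 months 5 were lower and 3 higher (Chga, Chgb and Tph1) in the edgeR test. Gcg, the gene of glucagon-like peptides, stood at 36.3 to 43.8 counts per 1000000 (CPM) in controls and at 1.22 to 3.49 in the libraries labelled mutant at 8 days, and at 38.8 to 70.5 against 0 to 0.178 at 3 months. All directions below are those of the libraries as labelled. The ileal bile acid carriers Fabp6 and Slc10a2 were present in all 15 libraries. A list of 8 genes of the proximal small intestine summed to 2696 to 3036 CPM in the 8-day controls. In the 3-month controls, scaled separately, it summed to 724 to 1548. In 2 of the 4 libraries labelled mutant at 8 days (replicates 2 and 4), Gata4, a transcription factor of the proximal small intestine, stood at 0.63 and 1.27 CPM, against 12.1 to 24.5 in the other 5 libraries of that cohort. Gata4 stood at 1.63 to 3.65 CPM in the 3-month controls, so the other 5 libraries were the ones far from that level. The 8-day values of all 10 genes and of their ratios are given with and without these libraries. The labels do not say that libraries of a group are separate litters or cultures, and p-values measure the spread between these animals.

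At 3 months 2 of the 10 genes, Dgat2 and Plin2, were higher in the libraries labelled mutant, by 1.92 and 1.72 times in mean CPM (n = 4 and 4). These 2 genes were also the ones whose groups did not overlap. Of all 17085 genes tested at 3 months, 9.28% were called (4.96% higher and 4.32% lower), and the groups did not overlap with the libraries labelled mutant higher for 9.70% and lower for 9.53%. The other 8 genes were not called at 3 months: Cd36, Slc27a4, Fabp1, Fabp2, Acsl5, Mogat2, Dgat1 and Plin3. At 8 days 0 of the 10 genes were called by the edgeR quasi-likelihood test, where 0.0915% of 17493 genes were (0.0343% higher and 0.0572% lower). Of the 10 only Plin2 had an unadjusted p under 0.05 at 8 days, as did 8.8% of all genes, and DESeq2 and limma-voom called 0 of 10. The groups of 0 of the 10 genes were free of overlap at 8 days, against 7.63% of all genes tested (3.84% with the libraries labelled mutant higher and 3.80% lower). The median log2 fold change of the 10 genes was -0.00179 at 8 days, beside -0.00197 over all genes tested. At 3 months it was 0.248, beside 0.00769 over all genes. Ileum was measured as bulk tissue, so fewer cells of a type and less RNA per cell cannot be told apart for any gene named here.

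**Figure D1:**
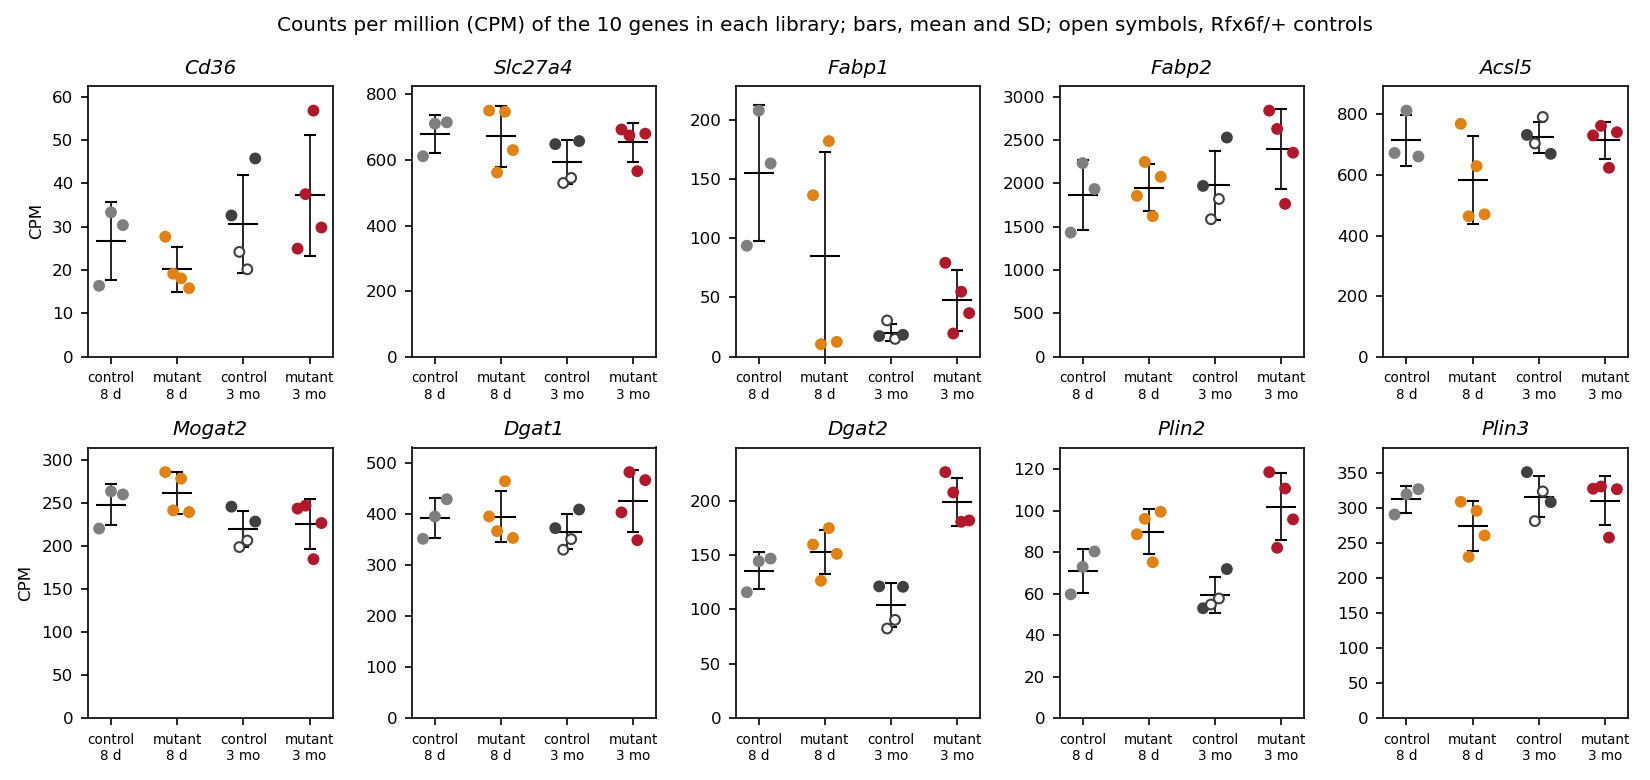
TMM-scaled counts per 1000000 (linear vertical axis from 0, own scale in each panel) of the 10 genes in every library, by group. Points are libraries and bars are the mean with SD (n = 3, 4, 4 and 4), and open circles are Rfx6f/+ controls. The SD bar of Fabp1 in the 8-day libraries labelled mutant is cut at 0. Dgat2 and Plin2 at 3 months are the panels in which all libraries labelled mutant lie above all controls. Fabp1 falls into a high and a low pair among the 8-day libraries labelled mutant.

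Among the uptake proteins, Slc27a4 was abundant and even, and Cd36 was low and spread. Slc27a4 encodes the fatty acid transport protein FATP4, which also has acyl-CoA synthetase activity. At 8 days it stood at 611, 711 and 715 CPM in controls and at 750.3, 562, 747 and 630.0 in libraries labelled mutant. At 3 months it stood at 648, 529.7, 545 and 658 CPM in controls and at 693, 675, 566 and 680.0 in libraries labelled mutant. The groups overlapped at both times. Its log2 fold change was -0.01 (SE 0.12, edgeR adjusted p = 0.991) at 8 days and 0.13 (SE 0.10, adjusted p = 0.403) at 3 months.

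Cd36 encodes a membrane receptor for fatty acids that adipocytes, capillary endothelium and macrophages also express. It was listed at 16.4, 33.3 and 30.4 CPM in 8-day controls and at 27.7, 19.2, 18.1 and 15.8 in the libraries labelled mutant. At 3 months it was at 32.6, 24.2, 20.2 and 45.7 CPM in controls and at 24.9, 37.5, 56.8 and 29.8 in the libraries labelled mutant. The groups overlapped at both times, and the highest library of each 3-month group was 2.27 and 2.28 times its lowest. Its log2 fold change was -0.40 (SE 0.26, edgeR adjusted p = 0.744) at 8 days and 0.28 (SE 0.30, adjusted p = 0.567) at 3 months. Adipoq, the adipocyte hormone adiponectin, varied over the same libraries. It was at 13.2, 3.04, 0.0388 and 21.1 CPM in the 3-month controls and at 2.44, 6.70, 16.3 and 7.04 in the libraries labelled mutant, so the library with most Cd36 in each 3-month group was also the one with most Adipoq. At 8 days Adipoq stood at 0.901, 5.31 and 9.47 CPM in controls and at 4.05, 2.70, 0.175 and 1.07 in the libraries labelled mutant. There replicate 1 of the libraries labelled mutant had the most of both genes. Among the controls Cd36 was highest in replicate 2 and Adipoq in replicate 3. Summed over 9 adipocyte genes, of which Pck1, Cidec and Lipe are also expressed by enterocytes, the list ranged from 78.9 to 263.3 CPM in controls and from 207 to 271 in the libraries labelled mutant at 3 months. The macrophage list ranged from 446 to 549 against 431 to 575 CPM and the endothelial list from 111 to 118 against 127 to 176 at 3 months. The part of these cells in the level of Cd36 was not tested.

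**Figure D2:**
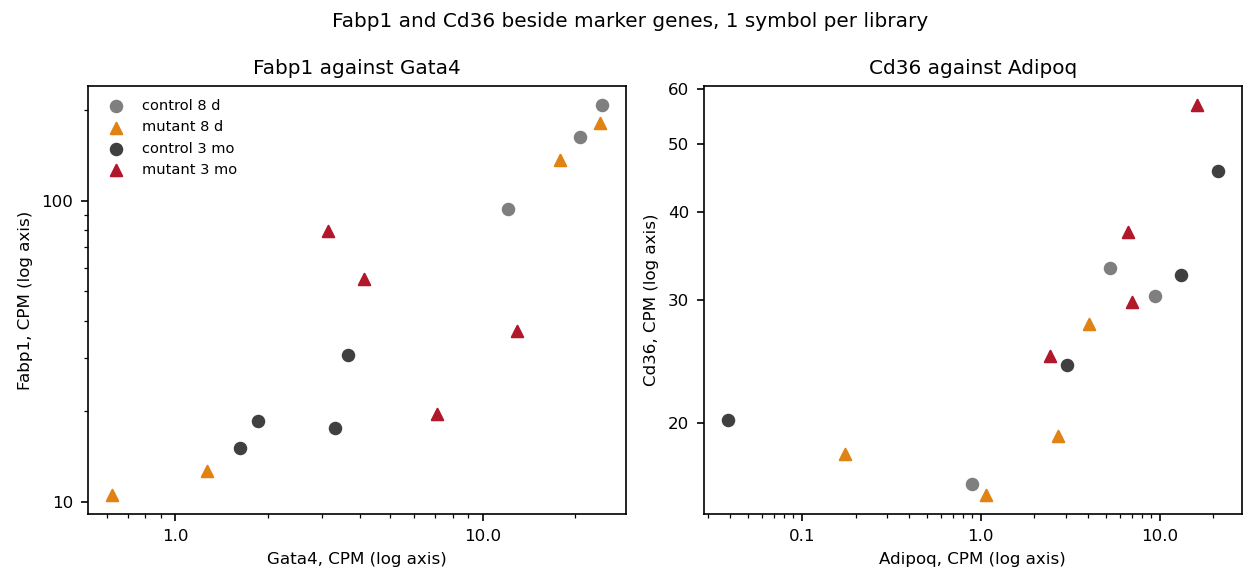
Left, Fabp1 against Gata4, and right, Cd36 against Adipoq, both in counts per 1000000 on log axes with 1 symbol per library. Circles are controls and triangles are libraries labelled mutant. The pair of 8-day triangles at the lower left of the Fabp1 panel are replicates 2 and 4, with Gata4 at 0.63 and 1.27 CPM.

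The binding proteins differed in level and in evenness, with Fabp2 high in every library and Fabp1 spread widely. Fabp2, the intestinal fatty acid binding protein, was the most abundant of the 10 genes. It stood at 1432, 2233 and 1934 CPM in 8-day controls and at 1856, 2246, 1621 and 2075 in the libraries labelled mutant. At 3 months it stood at 1970, 1586, 1819 and 2528 CPM in controls and at 2838, 2627, 1763 and 2353 in the libraries labelled mutant. The groups overlapped at both times, although 2 of the 4 libraries labelled mutant at 3 months were above every control. It differed by 0.06 on the log2 scale (SE 0.16, edgeR adjusted p = 0.970) at 8 days and 0.28 (SE 0.18, adjusted p = 0.334) at 3 months. Without the library of highest Adipoq in each group the 3-month value became 0.53 (edgeR adjusted p = 0.0472), and with Rfx6f/f controls only it became 0.090 (adjusted p = 0.849).

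Fabp1, the liver-type fatty acid binding protein, is known to be highest in the proximal small intestine. At 8 days it stood at 93.6, 208 and 163 CPM in controls and at 136, 10.6, 182 and 12.6 in the libraries labelled mutant. Replicates 2 and 4 of the libraries labelled mutant were thus far below the other 5 libraries, and they were the same libraries that had little Gata4. At 8 days its log2 fold change was -0.86 (SE 0.89, edgeR adjusted p = 0.885). Without these 2 libraries it was 0.04 (SE 0.30, adjusted p = 0.996), so that the negative value rested on them. At 3 months, in a cohort scaled separately, Fabp1 was lower in every control than in any 8-day control, at 17.5, 30.6, 15.1 and 18.5 CPM, and it stood at 79.3, 19.6, 54.9 and 36.9 in the libraries labelled mutant. Of those 4 libraries, 3 were above all controls and replicate 2 was within their range. At 3 months its log2 fold change was 1.22 (SE 0.39), which missed the threshold (edgeR adjusted p = 0.0810). It passed in DESeq2 (adjusted p = 0.0454), and in edgeR without replicate 2 of the libraries labelled mutant (1.48, adjusted p = 0.0249). It missed in limma-voom (1.09, adjusted p = 0.130), with robust fitting (adjusted p = 0.121) and without replicate 1 of those libraries (0.86, adjusted p = 0.174), and its adjusted p ranged from 0.0249 to 0.294 over all alternatives. Gata4 was at 3.30, 3.65, 1.63 and 1.86 CPM in the 3-month controls and at 3.15, 7.09, 4.10 and 13.0 in the libraries labelled mutant. Its log2 difference was 1.37 (SE 0.46, edgeR adjusted p = 0.0883). Among these controls, replicate 2 had the most Fabp1 and the most Gata4. Among the libraries labelled mutant, replicate 1 had the most Fabp1 and the least Gata4. The 8-gene list of the proximal small intestine summed to 724 to 1548 CPM in the 3-month controls and to 1163 to 2613 in the libraries labelled mutant. The 7-gene ileum list ran the other way, at 5361 to 6010 against 2840 to 4024 CPM. The part of the position along the intestine in the level of Fabp1 was not tested.

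The promoters of these genes are shown because Fabp1 alone among the members on record held a letter match for the sites searched. Promoters of 7 of the 10 genes were taken from RefSeq (GRCm38.p6), from 250 bases before to 50 after the gene's start. They are read 5′ to 3′ on the gene's strand and written in lower case, with motif matches in capitals. The searched letters, on both strands, were a direct repeat as bound by nuclear receptors of the PPAR and HNF4 kind (AGGTCA, then N, then AGGTCA, with N for any base), its relaxed form (AGGNCA, then N, then AGGNCA), which includes the strict one, an HNF4 form, CAAAGTCCA, and the TATA box, TATAAA. They were found in 0.0396%, 0.381%, 0.475% and 13.6% of all 32851 promoters of that length. The Fabp1 promoter (chr6:71199629-71199928, plus strand) held the relaxed repeat on the opposite strand at -67 to -55 and the TATA box at -30 to -25. The Fabp2 promoter (chr3:122894822-122895121, plus strand), that of its more abundant and more even relative, held 0 matches, and 6 of the 7 promoters held none. Absence of a match says that these letters are not in this window.
Fabp1: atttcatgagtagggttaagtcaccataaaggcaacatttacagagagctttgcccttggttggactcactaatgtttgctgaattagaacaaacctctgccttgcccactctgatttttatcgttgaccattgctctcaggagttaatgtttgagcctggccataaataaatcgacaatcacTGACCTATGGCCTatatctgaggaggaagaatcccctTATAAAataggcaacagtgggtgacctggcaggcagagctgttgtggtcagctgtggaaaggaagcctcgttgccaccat
Fabp2: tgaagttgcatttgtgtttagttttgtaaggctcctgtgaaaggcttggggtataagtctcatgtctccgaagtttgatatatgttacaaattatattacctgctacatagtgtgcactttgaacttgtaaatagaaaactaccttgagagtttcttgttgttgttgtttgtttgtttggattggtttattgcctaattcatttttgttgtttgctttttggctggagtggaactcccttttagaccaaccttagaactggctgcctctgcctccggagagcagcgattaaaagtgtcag

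Activation of fatty acids by Acsl5, a long-chain acyl-CoA synthetase that is abundant in the intestine, did not pass the test at either time. Acsl5 stood at 673, 813 and 661 CPM in 8-day controls and at 769, 464, 629.6 and 470.5 in the libraries labelled mutant. Replicates 2 and 4 were again the lowest, replicate 3 was also below every control, and replicate 1 was within their range. At 3 months the range was 670.1 to 792 CPM in controls and 624 to 763 in the libraries labelled mutant, which overlapped almost throughout. The log2 fold change was -0.29 (SE 0.18, edgeR adjusted p = 0.729) at 8 days, -0.03 without replicates 2 and 4, and -0.02 (SE 0.09, adjusted p = 0.899) at 3 months. Acsl5 shares 404 exon bases with Zdhhc6 on the opposite strand. Whether the authors counted by strand is not given in the sources used here, so reads of the pair may not be told apart.

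Among the triglyceride-forming enzymes, Dgat2 was called at 3 months and Mogat2 and Dgat1 were not. Mogat2, which makes diacylglycerol from monoacylglycerol, ranged from 199 to 246 CPM in controls and from 185 to 247 in the libraries labelled mutant at 3 months. At 8 days it ranged from 220.3 to 264 against 239 to 286 CPM. Its log2 fold change was 0.08 (SE 0.10, edgeR adjusted p = 0.924) at 8 days and 0.04 (SE 0.11, adjusted p = 0.846) at 3 months. Dgat1, the diacylglycerol acyltransferase of the endoplasmic reticulum membrane that is active in fat absorption, ranged from 352 to 429 against 353 to 464 CPM at 8 days. At 3 months Dgat1 stood at 372, 330.2, 351 and 409 CPM in controls and at 403, 482, 349 and 466 in the libraries labelled mutant, and the groups overlapped. Its log2 fold change was 0.01 (SE 0.11, edgeR adjusted p = 0.992) at 8 days and 0.22 (SE 0.11, adjusted p = 0.234) at 3 months.

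Dgat2 catalyses the same step as Dgat1 but belongs to another protein family, the one that also holds Mogat2. At 8 days it stood at 116, 144 and 147 CPM in controls and at 159.6, 126, 175 and 151 in the libraries labelled mutant. These groups overlapped, with a log2 fold change of 0.17 (SE 0.12, edgeR adjusted p = 0.796). At 3 months it stood at 121, 82.5, 90.4 and 121 CPM in controls and at 226, 207, 181 and 182 in the libraries labelled mutant. Every library labelled mutant was above every control, and the mean rose from 104 ± 20.2 to 199 ± 21.95 CPM (SD, n = 4 and 4). The log2 fold change was 0.94 (SE 0.14, edgeR adjusted p = 0.00934). It remained called when any 1 of the 8 libraries was left out, at 0.84 to 1.02 (adjusted p 0.0133 to 0.0387), and without the library of highest Adipoq in each group, at 1.06 (adjusted p = 0.0202). Control genotypes differed in this gene before adjustment. The Rfx6f/+ controls, replicates 2 and 3, held the lower pair of control values, with a log2 difference from Rfx6f/f of -0.48 (SE 0.12, unadjusted p = 0.00372, edgeR adjusted p = 0.642). Against the 2 Rfx6f/f controls alone, the log2 fold change of Dgat2 was 0.72 (SE 0.11) and was no longer called (edgeR adjusted p = 0.0761). That fit of 6 libraries called 36 of 17552 genes, where the fit of all 8 called 1586 of 17085. Some marker lists also lay lower in the Rfx6f/+ controls and others higher, although 0 of their genes were called by the edgeR test. The lists of macrophages, B and plasma cells, T cells and proliferation had 8 of 8 genes higher in Rfx6f/+. Their median log2 differences were 0.142, 0.397, 0.277 and 0.0867. The adipocyte list summed to 178 and 263.3 CPM in the Rfx6f/f controls and to 109 and 78.9 in the Rfx6f/+ controls, with 8 of its 9 genes at an unadjusted p under 0.05 and a median log2 difference of -3.31. The enterocyte list summed to 6741 and 7143 CPM in the Rfx6f/f and to 5671 and 5732 in the Rfx6f/+ controls, with 1 of 8 genes positive and a median of -0.36. The exocrine pancreas list summed to 263.1 and 1573 against 54.8 and 95.9 CPM, with 7 of 7 genes tested at an unadjusted p under 0.05 and a median of -3.7. Their part in the Dgat2 values was not tested.

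Of the droplet coat proteins, Plin2 was called at 3 months and Plin3 was not. Plin2, which sits constantly on lipid droplets and is degraded when free of lipid, stood at 59.7, 72.9 and 80.3 CPM in 8-day controls and at 88.6, 96.0, 75.1 and 99.4 in the libraries labelled mutant. Of the 4 libraries labelled mutant, 3 were above all controls, with a log2 fold change of 0.34 (SE 0.13, unadjusted p = 0.0253, edgeR adjusted p = 0.476). Without replicates 2 and 4 that value was 0.21. At 3 months Plin2 stood at 53.0, 54.8, 57.7 and 71.8 CPM in controls and at 118, 82.1, 111 and 95.8 in the libraries labelled mutant. The groups did not overlap, and the mean rose from 59.3 ± 8.56 to 102 ± 16.1 CPM (SD, n = 4 and 4). The log2 fold change was 0.78 (SE 0.13, edgeR adjusted p = 0.0143). With any 1 library left out it lay between 0.70 and 0.88 and remained called (adjusted p 0.00631 to 0.0490), and without the library of highest Adipoq in each group it was 0.83 (adjusted p = 0.0234). Against the Rfx6f/f controls alone it was 0.70 (SE 0.18) and was not called (edgeR adjusted p = 0.161), where 36 of 17552 genes were. Its promoter (GRCm38.p6, chr4:86670010-86670309, minus strand) is printed as that of a gene that rose, and held 0 of the letters searched.
Plin2: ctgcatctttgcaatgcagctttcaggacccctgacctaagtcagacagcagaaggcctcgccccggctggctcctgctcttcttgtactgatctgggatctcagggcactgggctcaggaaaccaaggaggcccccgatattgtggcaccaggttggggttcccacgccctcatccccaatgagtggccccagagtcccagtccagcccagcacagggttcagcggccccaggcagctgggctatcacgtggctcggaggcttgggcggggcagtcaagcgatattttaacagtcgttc

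Plin3, a perilipin that moves between the cytosol and small, newly formed droplets, ranged from 291 to 328 CPM in 8-day controls and stood at 309.6, 231, 297 and 261 in the libraries labelled mutant. At 3 months it ranged from 282 to 352 CPM in controls and from 258 to 331 in the libraries labelled mutant. The groups overlapped at both times, and the log2 fold change was -0.19 (SE 0.11, edgeR adjusted p = 0.700) at 8 days and -0.03 (SE 0.10, adjusted p = 0.891) at 3 months.

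Without replicates 2 and 4, the low-Gata4 libraries labelled mutant, 0 of the 10 genes were called at 8 days by the edgeR test (adjusted p 0.891 to 0.996). Among uptake and binding proteins the 8-day log2 fold change was then -0.22 for Cd36, 0.14 for Slc27a4, 0.040 for Fabp1 and -0.10 for Fabp2. For the enzymes it was -0.031 for Acsl5, 0.19 for Mogat2, 0.13 for Dgat1 and 0.30 for Dgat2. For the droplet coat it was 0.21 for Plin2 and -0.045 for Plin3. Slc27a4, Fabp1 and Fabp2 had the opposite sign from that with all libraries.

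**Figure D3:**
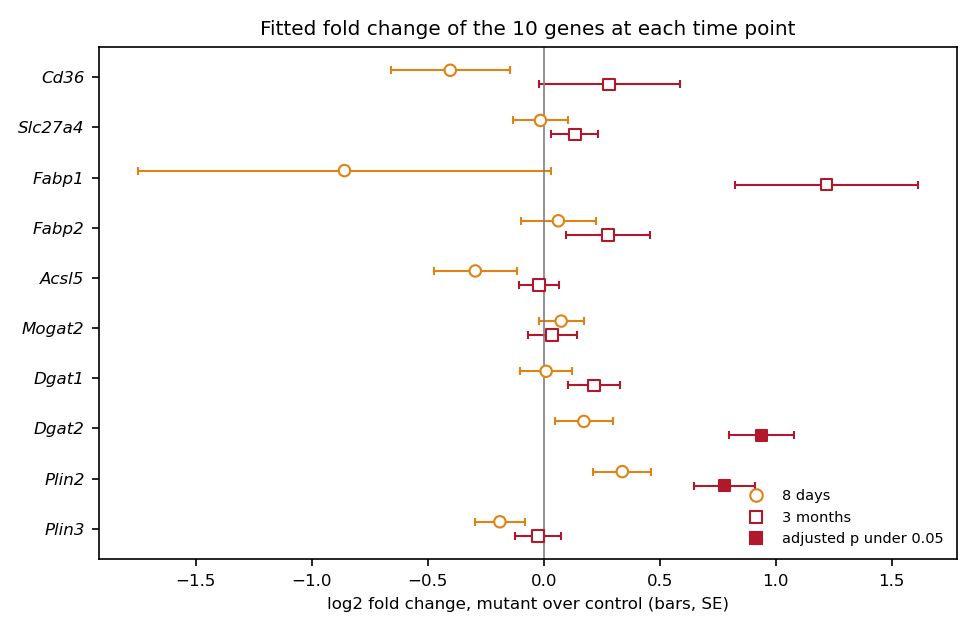
Log2 fold change of libraries labelled mutant over control for the 10 genes at 8 days and 3 months, with bars of 1 SE. Filled symbols mark an adjusted p under 0.05 in the edgeR quasi-likelihood test. Dgat2 (0.94) and Plin2 (0.78) at 3 months are filled, and Fabp1 has the widest bars (SE 0.89 and 0.39).

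The ratio of 2 genes in the same library does not depend on how libraries are scaled, and 4 such ratios were compared at each time, 8 tests in all. At 3 months there were 0.325, 0.250, 0.258 and 0.295 counts of Dgat2 for each count of Dgat1 in controls. In the libraries labelled mutant the ratio was 0.561, 0.430, 0.517 and 0.390, above every control. The mean log2 ratio went from -1.83 ± 0.18 to -1.09 ± 0.24 (SD, n = 4 and 4), a difference of 0.74 (SE 0.15), with an exact two-sided permutation p of 0.0286, the smallest that 70 splits allow, and an adjusted p of 0.114 over the 8 tests. At 8 days the same ratio was 0.329, 0.365 and 0.342 against 0.404, 0.345, 0.376 and 0.427, a log2 difference of 0.16 (SE 0.08, exact permutation p = 0.114, adjusted p = 0.183). For Plin2 and Plin3 the 3-month ratio was 0.151, 0.194, 0.178 and 0.232 among controls, against 0.361, 0.248, 0.428 and 0.292, again without overlap. Its log2 difference was 0.80 (SE 0.22, exact permutation p = 0.0286, adjusted p = 0.114). At 8 days the Plin2 to Plin3 ratio was 0.205, 0.228 and 0.245 against 0.286, 0.416, 0.253 and 0.380, which did not overlap either, with a log2 difference of 0.54 (SE 0.18, exact permutation p = 0.0571, adjusted p = 0.152). Its highest pair, 0.416 and 0.380, were the low-Gata4 replicates 2 and 4, and without them the difference was 0.26 (SE 0.12). The smallest p that the 35 splits of the 8-day libraries allow is 0.0286. The ratio of Mogat2 to Dgat1 differed by 0.07 (SE 0.07) at 8 days and by -0.18 (SE 0.08) at 3 months, and that of Fabp1 to Fabp2 by -1.86 (SE 1.20) and 0.82 (SE 0.57), all with overlapping groups and adjusted p of 0.183 to 0.400. Without the low-Gata4 libraries the 8-day difference of Fabp1 to Fabp2 turned to 0.18 (SE 0.34), while that of Dgat2 to Dgat1 was 0.18 (SE 0.07) and that of Mogat2 to Dgat1 was 0.057 (SE 0.14). None of the 8 ratios passed the threshold after adjustment.

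**Figure D4:**
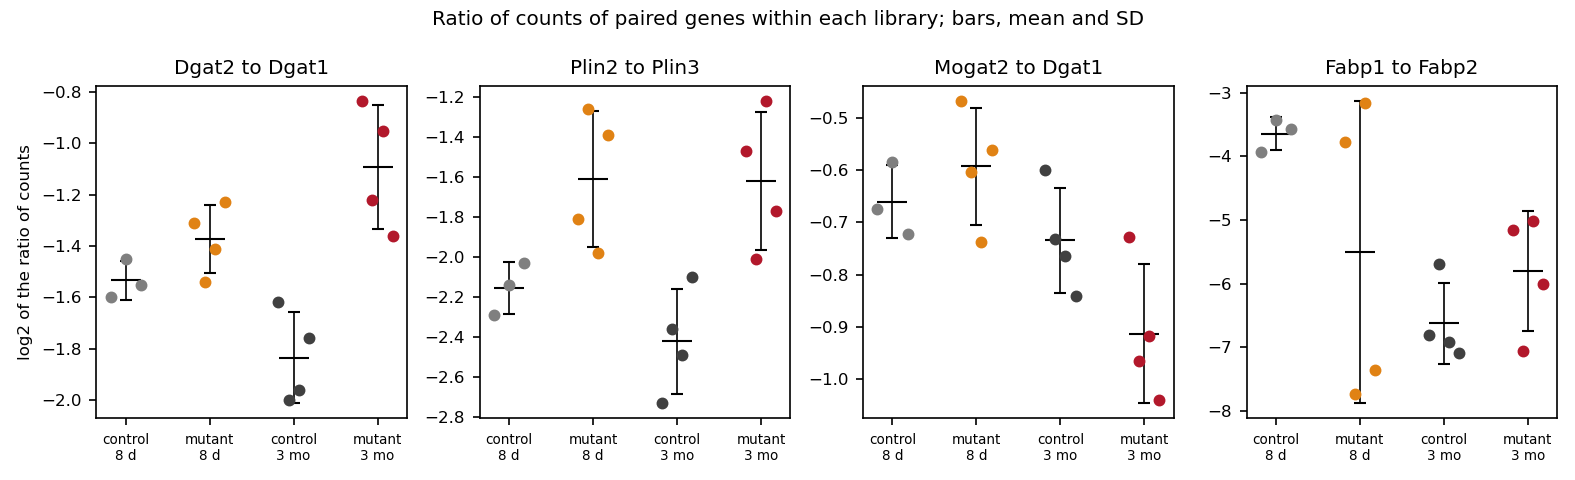
Log2 ratio of the counts of 2 genes within each library, for Dgat2 to Dgat1, Mogat2 to Dgat1, Fabp1 to Fabp2 and Plin2 to Plin3. Points are libraries and bars are the mean with SD. The libraries labelled mutant lie above all controls for Dgat2 to Dgat1 at 3 months and for Plin2 to Plin3 at both times.

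Whether the effect itself differed between the cohorts was tested in 1 fit of all 15 libraries. For 0 of the 10 genes the difference was called by the edgeR quasi-likelihood test, where 0.785% of 17959 genes were. Dgat2 and Plin2 had an unadjusted p under 0.05, as did 16.6% of all genes, while limma-voom called 0 and DESeq2 called 1, Dgat2. The 3-month effect of Dgat2 exceeded the 8-day effect by 0.75 on the log2 scale (SE 0.20, edgeR adjusted p = 0.0720), with 0.77 in DESeq2 (adjusted p = 0.00927). The difference was 0.42 for Plin2 (SE 0.19, edgeR adjusted p = 0.292), 0.67 for Cd36 (SE 0.44, adjusted p = 0.481) and 2.06 for Fabp1 (SE 1.06, adjusted p = 0.351). Without the low-Gata4 libraries these values were 0.63 for Dgat2 (adjusted p = 0.219), 0.57 for Plin2 (adjusted p = 0.289), 0.50 for Cd36 (adjusted p = 0.787) and 1.17 for Fabp1 (SE 0.61, adjusted p = 0.466). The call of Dgat2 and Plin2 at 3 months and its lack at 8 days are therefore not shown to differ between the cohorts by the edgeR test. Between the control genotypes at 3 months 0 of 10 genes were called, as were 0 of 17780 genes, while 1220 genes had an unadjusted p under 0.05 and DESeq2 called 48 genes and 0 of the 10. Besides Dgat2, Slc27a4 had an unadjusted p under 0.05 (log2 difference of -0.28 in Rfx6f/+, SE 0.11, edgeR adjusted p = 0.701).

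Levels of the 10 genes can be set side by side only per length of transcript, in CPM per kilobase of merged exons. Fabp2 led in every group, with means of 1934 to 2482 CPM per kilobase. Slc27a4, Acsl5, Mogat2 and Dgat1 followed at 120 to 154, and neighbours among these 4 overlapped in every group. Plin3 came below at 72.5 to 83.7, Dgat2 at 33.6 to 64.5, Plin2 at 16.9 to 29.0 and Cd36 last at 5.62 to 10.4. Fabp1 changed its place most. It stood directly below Fabp2 in the 8-day controls at 279.8 ± 104 CPM per kilobase (SD, n = 3) and below Plin3 in the 3-month controls at 37.0 ± 12.6 (SD, n = 4), where it overlapped with Dgat2. Dgat2 stayed below Dgat1 in all 4 groups, also in the 3-month libraries labelled mutant, where Dgat2 was at 64.5 ± 7.12 and Dgat1 at 139 ± 20.04 CPM per kilobase (SD, n = 4).

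Other genes of the pathway were taken from a list of 83 genes in 8 roles. At 8 days 0 of the 76 genes tested were called by the edgeR quasi-likelihood test, 15 had an unadjusted p under 0.05, where 8.8% of all genes did, and the median log2 fold change was -0.00791. DESeq2 called 4 of the 76 lower and 0 higher, where it called 69 and 109 of all genes. A joint fit of both cohorts called 1 lower, where 16 of all genes were. Omission of the library of highest Adipoq in each group also called 1 lower, where 12 of all genes were. At 3 months 16 rose, 5 fell, 52 did not pass and 10 were not tested, with a median of 0.225 beside 0.00769 over all genes. Over all genes tested 4.96% rose and 4.32% fell, and the counts by role below stand against these shares. With Rfx6f/f controls only, 3 of 75 genes tested rose (Apoa4, Creb3l3 and Mlxipl), 0 fell, and the median was 0.030. Over all 17552 genes of that fit, 23 rose and 13 fell. With 1 library left out, 9 to 16 of the list rose and 1 to 6 fell. Without control replicates 1, 2 and 3, 10, 10 and 9 of the list rose, beside 250, 271 and 251 of all genes. Scaled to 8 epithelial genes, 30 of the list rose and 4 fell, with a median of 0.388. Of all genes, 2525 rose and 281 fell under that scaling. Among carriers and binding proteins, Slc27a1, a fatty acid transport protein of muscle and fat, rose by 0.60 (edgeR adjusted p = 0.0226) and the acyl-CoA binding protein Dbi by 0.36 (adjusted p = 0.0247). The bile acid binding protein Fabp6 fell by 1.44 (adjusted p = 0.00873) and Fabp5 fell by 0.65 (adjusted p = 0.0451). Fabp6 was at 2005 to 2706 CPM in controls and at 572 to 1178 in the libraries labelled mutant. Of 5 other synthetases tested beside Acsl5, Acsl3, which acts at forming lipid droplets, rose by 1.19 (adjusted p = 0.00396) and Acsl1 by 0.56 (adjusted p = 0.0238). Acsl3 shares exon sequence with Utp14b on the same strand, and the counts of the pair are uncertain.

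In the glycerol phosphate route, which builds triglyceride from glycerol 3-phosphate rather than from monoacylglycerol, 2 of 13 genes tested rose at 3 months and 1 fell, beside 9.28% called over all genes. Agpat2, which makes phosphatidic acid, rose by 0.51 (edgeR adjusted p = 0.0226) and the phosphatidic acid phosphatase Lpin2 by 0.46 (adjusted p = 0.0412), while Agpat4 fell by 0.72 (adjusted p = 0.0335). The list had 1 gene of the monoacylglycerol route tested besides the members, and it did not pass. Of 9 other droplet proteins, Cidec, a protein of droplet fusion that enterocytes and adipocytes both express, rose by 1.59 (adjusted p = 0.00915), from 17.7 ± 6.33 to 53.4 ± 7.49 CPM (SD, n = 4 and 4). The 14 genes of triglyceride breakdown went in both directions. The carboxylesterase Ces2c rose by 1.0 (adjusted p = 0.0103), monoglyceride lipase Mgll by 0.83 (adjusted p = 0.0320) and lysosomal acid lipase Lipa by 0.77 (adjusted p = 0.0112). The carboxylesterases Ces1f and Ces1e fell by 0.87 (adjusted p = 0.0243) and 0.65 (adjusted p = 0.0246).

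Of 8 genes of chylomicron assembly, 2 rose at 3 months. Apoa4, an apolipoprotein secreted on chylomicrons, rose by 3.42 on the log2 scale (SE 0.28, edgeR adjusted p = 0.000717), from 159 to 355 CPM in controls to 2094 to 3842 in the libraries labelled mutant. Apoc3 rose by 1.84 (SE 0.20, adjusted p = 0.00269), from 18.4 to 27.0 to 54.5 to 91.7 CPM. The structural protein Apob was at 0.54 (adjusted p = 0.0750) and Apoa1, a main protein of high density lipoprotein, at 0.58 (adjusted p = 0.0966), neither past the threshold. Of 13 transcription factors, 4 rose, where 4.96% of all genes did. Creb3l3, known to drive Apoa4 in liver and intestine, rose by 1.74 (SE 0.13, adjusted p = 0.000555), from 59.96 ± 6.72 to 199.9 ± 35.5 CPM (SD, n = 4 and 4). Mlxipl, the carbohydrate-sensing factor ChREBP, rose by 1.49 (SE 0.12, adjusted p = 0.000567), Ppargc1a by 1.09 (adjusted p = 0.0236) and Ppard by 0.62 (adjusted p = 0.00613). The log2 fold change was 0.44 for Ppara (adjusted p = 0.208), -0.0039 for Pparg (adjusted p = 0.991), -0.02 for Hnf4a (adjusted p = 0.888) and 0.23 for Hnf4g (adjusted p = 0.416). The difference of the effect between the cohorts was called by the edgeR test for 2 of 75 genes tested. They were Apoa4 (3.30, edgeR adjusted p = 0.0473) and Mlxipl (1.01, adjusted p = 0.0419). DESeq2 called 12 higher and 2 lower of 74, where it called 426 and 591 of all genes. Limma-voom, epithelial scaling and Rfx6f/f controls only gave 0, where 41, 43 and 5 of all genes were called. With 1 library left out it was 0 to 8 of the list, beside 10 to 749 of all genes.

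Targets of PPARA, the nuclear receptor of fatty acids that switches on their oxidation, were kept as a further list of 20 genes. Known targets of this receptor among the 10 members, whether called (Plin2) or not, were not on the list. At 3 months 9 of the 18 tested rose and 0 fell in the edgeR quasi-likelihood test, where 4.96% of all genes rose and 4.32% fell, and the median log2 fold change was 0.567 beside 0.00769 over all genes. These calls depended on the libraries used. Without control replicate 1, 2 or 3, 0 of 18 were called, and with Rfx6f/f controls only 0 of 19. The medians were then 0.558, 0.574, 0.553 and 0.538, and 11, 11, 13 and 10 genes had an edgeR unadjusted p under 0.05. Calls over all genes fell in the same fits, from 1586 to 400, 412, 391 and 36. Without mutant replicates 1 and 3, 6 and 4 were called, where 856 and 768 of all genes were. Without control replicate 4 it was 6 (1521 of all genes), and without the library of highest Adipoq in each group 3 (1007 of all genes). DESeq2 called 11 of 18 higher, where it called 1471 of all genes higher. Scaled to 8 epithelial genes, 14 of 18 were higher with a median of 0.741, where 2525 of all genes were higher. At 8 days the edgeR test called 0 of 18, 3 had an unadjusted p under 0.05, and the median was 0.211. DESeq2 called 2 of 18 higher and 0 lower at 8 days, where it called 109 and 69 of all genes. Of the genes called at 3 months, the thiolase Acaa2 rose by 0.70 (edgeR adjusted p = 0.0177) and the carnitine carrier Slc25a20 by 0.63 (adjusted p = 0.0301). The trifunctional protein subunit Hadha rose by 0.58 at 3 months (edgeR adjusted p = 0.0170).

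Marker lists of other cell types also separated the 3-month groups, beside Dgat2 and Plin2. Summed over 8 genes each, the T cell list stood at 90.3 to 111 CPM in controls and 33.1 to 73.4 in the libraries labelled mutant, and the list of B and plasma cells at 2167 to 3044 against 1163 to 1678. Of these genes, 6 of 8 T cell and 2 of 8 B and plasma cell markers fell in the edgeR test. The goblet cell list stood at 15900 to 18140 against 20490 to 22720 CPM, but 1 of its 8 genes was called, the mucin Muc2 (0.95, edgeR adjusted p = 0.0144), 5 of 8 were positive, and the median was 0.169. The endothelial list, at 111 to 118 against 127 to 176 CPM, had 4 of 8 genes higher and a median of 0.472. The epithelial list overlapped, at 11120 to 13260 against 10210 to 11710 CPM. With libraries scaled to these 8 epithelial genes instead, the median of all genes at 3 months moved up by 0.175 and the share of calls that were higher went from 53.5% to 90.0%. Dgat2 stood at 1.12 and Plin2 at 0.96 under that scaling, where 16.4% of all genes and 6 of the 10 were called, with Slc27a4, Fabp1, Fabp2 and Dgat1 added. The part of cell composition in the level of these genes was not tested.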

How the data were processed

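Ileum RNA of 15 mice was sequenced, and the authors deposited raw counts of reads by Ensembl identifier, in 1 table for each of the 2 cohorts. Per the submitters' processing notes the build was mm9 and the tools included bcl2fastq 2.17.1.14, Bowtie 1.0.0, TopHat2 2.0.10, Bowtie2 2.1.0 and HTSeq 0.6.1; strand handling is not given in the sources used here. Total RNA was depleted of ribosomal RNA, per the labels' protocols, although another label speaks of polyA RNA. The protocols name 2 ways of RNA extraction without saying which sample had which. No control of the recombinase alone is among the groups, and the labels pair no animals.

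Groups came from the genotype and time labels. Symbols, merged exon length and exon overlap came from GENCODE M21 (GRCm38), which named 32897 identifiers (87.45%), and the unnamed ones held 0.675% of counts. Within each cohort, mutant and control counts were compared by edgeR (4.0.16, quasi-likelihood, under R 4.3.3) after filterByExpr (minimum count 10) and TMM scaling, with Benjamini-Hochberg adjusted p under 0.05 over all genes tested as the call. The difference between cohorts was the interaction in 1 fit of all 15 libraries, and control genotypes were compared among the 8 libraries of 3 months. CPM use the TMM-scaled totals of each cohort, so levels in the cohorts were scaled separately. Ratios of counts were tested by exact two-sided permutation over libraries. Library totals of 26078462 to 54468586 counts put 388 counts or more behind each member's value. Pairs of libraries of a group differed beyond sampling noise (lowest chi-square per degree of freedom 12.1). Per-sample columns left without a sample numbered 0.

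The members and lists were chosen with earlier results of these data known. All members were named, and of each list role up to 4 called genes with the largest change and up to 2 others with the highest mean CPM. Ppara, Pparg, Ces1e, Gata4 and Adipoq fell outside that rule and were picked after their values had been seen. A result that met the rule is not reported here. Alternatives were DESeq2 1.42.0, limma-voom (limma 3.58.1), RLE, upper quartile and epithelial scaling, scaling without the 20 most counted genes, other filters, robust fitting, a joint fit, omission of the Rfx6f/+ controls, and omission of each library in turn. Leaving out the low-Gata4 libraries, or the library of highest Adipoq in each group, was added after seeing the data, as were the counts of list genes called under each alternative. Tested on simulated counts with 200 genes changed by a log2 fold of 1 (3 draws), the edgeR test recovered 60.5% of them among the 17493 genes of 8 days, with 6.92% false calls. It recovered 68.7% among the 17085 genes of 3 months, with 5.5% false calls, and 48.3% among the 17959 genes of the difference, with 5.23% false calls.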

Additional observations from a re-analysis of the deposited data

Results flagged for a closer look

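Of 42 checks for a library far from the other libraries of its group, 2 met the limit, where chance gives about 2.1 (1 in 20). Both were replicate 3 of the 3-month libraries labelled mutant. Slc27a4 stood at 566 CPM there, against 675 to 693 in the other 3 libraries of the group. Plin3 stood at 258 CPM there, against 328 to 331 in the others. The same library had the highest Adipoq of its group (16.3 CPM) and the highest Cd36 (56.8 CPM). The part of other cells in these values was not tested. Without that library the log2 fold change at 3 months was 0.20 for Slc27a4 and 0.06 for Plin3, and neither was called.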

How the results depend on the processing

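No paired analysis was possible because the labels pair no animals and replicates were numbered in deposit order. Of 746 re-computed values of members and of their ratios, 704 kept their direction and their side of the threshold, 32 changed sign, 8 became called and 2 ceased to be called. No value that changed sign was called in either form. Without the low-Gata4 libraries Fabp1 at 8 days went from -0.86 to 0.040, and its ratio to Fabp2 from -1.86 to 0.18. At 8 days the log2 fold change of Slc27a4 was 0.17 under epithelial scaling and 0.14 without the low-Gata4 libraries, and that of Fabp2 was -0.10 without them. At 3 months, with Rfx6f/f controls only, it was -0.071 for Cd36, -4.9e-05 for Slc27a4, 0.026 for Acsl5 and -0.073 for Mogat2. Under epithelial scaling it was 0.15 for Acsl5 and 0.15 for Plin3, and 0.036 for Plin3 without the libraries of highest Adipoq. For the difference between cohorts it was -0.011 for Slc27a4 without the low-Gata4 libraries and 0.052 for Mogat2 without those of highest Adipoq. With 1 library left out, values ranged at 8 days from -0.085 to 0.064 for Slc27a4, -0.097 to 0.21 for Fabp2, -0.0038 to 0.12 for Mogat2 and -0.077 to 0.080 for Dgat1, at 3 months from -0.057 to 0.040 for Acsl5, -0.010 to 0.12 for Mogat2 and -0.078 to 0.055 for Plin3, and for the difference from -0.10 to 0.055 for Mogat2. The cause was not tested.

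Of all genes, 16 were called at 8 days, and 178 by DESeq2, 39 under epithelial scaling, 27 without a filter, 25 in a joint fit and 36 without the libraries of highest Adipoq. With 1 library left out the count was 8 to 200 (8, 8 and 10 without control replicates 1, 2 and 3, and 200 without mutant replicate 1). At 3 months 1586 were called, and 2983 by DESeq2, 2806 under epithelial scaling, 36 with Rfx6f/f controls only, 1007 without the libraries of highest Adipoq and 391 to 1521 with 1 library left out (400, 412 and 391 without control replicates 1, 2 and 3, and 856 and 768 without mutant replicates 1 and 3). The difference between cohorts was called for 141 genes, and for 1017 by DESeq2, 41 by limma-voom, 43 under epithelial scaling, 223 without a filter, 248 with at least 10 counts in every sample, 5 with Rfx6f/f controls only, 14 without the low-Gata4 libraries, 35 without those of highest Adipoq and 10 to 749 with 1 library left out, where it stayed within 1.5 times of 141 in the single case of control replicate 4 of 3 months (131). DESeq2 called 48 genes between control genotypes, where edgeR called 0. Of the 10 members at 3 months, 2 were called, with 6 under epithelial scaling, 0 with Rfx6f/f controls only and 2 to 3 with 1 library left out. For the difference DESeq2 called 1 member. The 8 ratios kept their sign with 0.5 counts added and with each library left out; as few libraries as these could hardly pass the adjusted threshold, so staying above it says nothing of stability. With 1 library left out the Dgat2 to Dgat1 value at 3 months was 0.66 to 0.83 and the Plin2 to Plin3 value 0.67 to 0.93. With 388 counts or more behind each value, counting error is small beside the spread between animals, and the number of animals limits the precision.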
